A study of Mus musculus with 2 samples.

Results

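Endothelial cells, the lining of blood and lymph vessels, made up a small remainder of lung cells that had been sorted for CD45, the pan-leukocyte surface protein. They were chosen by detected transcripts in these same libraries, as cells with at least 3 of the 6 genes Pecam1, Cdh5, Cldn5, Egfl7, Ramp2 and Calcrl detected, and with none of Cd3e (T cells), Cd79a (B cells), Csf3r (neutrophils) and C1qa (macrophages) detected. These 10 genes are therefore described and support nothing below. The rule kept 168 of 11905 cells, 91 of 5702 in the PBS library and 77 of 6203 in the DT library.

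The libraries came from Scgb1a1cre/iDTR mice, in which Cre under the club cell gene Scgb1a1 switches on a receptor for diphtheria toxin. All mice received 150000 HKP1 lung tumour cells by tail vein, tamoxifen (2 mg per 20 g on 5 days, day 3 to day 7), anti-PD-1 antibody (250 µg at day 6) and radiation (4 Gy on each of 3 days, day 10 to day 12). The DT group received 2 doses of diphtheria toxin (600 ng per 20 g, days 8 and 9) to deplete club cells, and the control group is taken to have received PBS in its place. That reading rests on the sample titles and the design text, since the treatment description of either sample lists the toxin. Lungs were taken 24 to 48 h after radiation from 4 mice per group, and each group gave 1 pooled 10x Genomics 3′ library of live CD45+ cells. There was therefore no replicate, no test between the groups was run, and intervals cover counting error only. Neither the age nor the sex of the mice was given, and no label ties a cell to a mouse. No group was left without radiation or without tumour. Both groups carried the same transgenes and received tamoxifen.

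As background, the alveolar wall of the lung holds a pair of capillary cell types. General capillary cells, which carry Gpihbp1 and Plvap, act as progenitors and regulate vessel tone, and aerocytes, large thin cells that carry Car4 and Ednrb, are specialised for gas exchange. Radiation breaks DNA and activates p53, a transcription factor that induces Cdkn1a (a brake on the cell cycle), Mdm2 (its own inhibitor) and death genes such as Bax and Bbc3. Endothelial cells also answer interferon gamma, a T cell and NK cell cytokine, by making guanylate-binding proteins and immunity-related GTPases, which attack vacuoles that hold microbes.

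The endothelial share of sorted cells was 1.60% (95% interval 1.29 to 1.96%) in the PBS library and 1.24% (0.981 to 1.55%) in the DT library, a ratio of 0.778 whose interval, 0.567 to 1.07, holds 1. The 91 PBS cells held 328947 UMIs (counted RNA molecules) with a median of 2061 per cell, and the 77 DT cells held 261345 with a median of 2117. Other cells had medians of 3742 and 2915. All 6 rule genes were detected in 48 PBS and 40 DT cells. At the threshold, the 12 PBS and 15 DT cells with 3 rule genes had Lyve1, a hyaluronan receptor of lung capillaries and lymphatics, in 66.7% and 53.3% of cells. The 32 PBS and 39 DT cells with 2 rule genes, left out by the rule, had it in 3.1% and 7.7%, and 78.1% and 53.8% of them had Ptprc, the gene of CD45.

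As a group the cells matched their label. Besides the rule genes, which by construction were high, transcripts that the rule did not use were abundant in them and near 0 in other cells. Levels are given as CPM, the UMIs of a gene summed over a group of cells and scaled to a common total for every group. Epas1, a hypoxia-response factor high in endothelium, stood at 3554 CPM in endothelial cells of the PBS library and 2690 CPM in those of DT, against 12.7 CPM in the other cells of both libraries. Lyve1 was at 2034 and 1454 CPM, against 4.39 and 3.94. Tmem100, a target of BMP signalling in lung endothelium, was at 1797 and 1163 CPM, against 4.29 and 3.26. All 24 further endothelial markers, such as Tie1, Kdr and Ptprb, were detected with at least 20 UMIs. Ptprc was detected in 7 PBS cells (7.69% of 91, interval 3.15 to 15.2%) and in 4 DT cells (5.19% of 77, interval 1.43 to 12.8%), against 88.2% and 81.7% of other cells, so most of these cells carried no detected transcript of the gene they had been sorted for.

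A few cells held RNA of another cell type. With at least 4 of 8 pan-leukocyte genes, or at least 3 genes of an alveolar type 2, fibroblast, erythroid or platelet list, 7 PBS and 8 DT cells were counted as mixed. They carried 20.6% and 30.8% of the endothelial UMIs, so many results are given with and without them. A PBS cell of 8274 UMIs and DT cells of 11124, 7718 and 6048 UMIs had all 8 pan-leukocyte genes and 3 rule genes. These cells had at most 2 aerocyte genes and at most 1 general capillary gene, so an endothelial identity is not clear for them. The largest ratios between the libraries rested on mixed cells. Sftpc, a surfactant gene of type 2 alveolar cells, had 6 UMIs in PBS and 3071 in DT, of which 1 cell held 3067. Each of the 10 genes with the highest ratios by the fixed rule had at least 99.5% of its DT UMIs in a single cell. Chil3 (409 and 0 UMIs), Ccl3 (64 and 2) and Ccl4 (106 and 1), macrophage genes at the other end, came mainly from a few PBS cells. Without mixed cells Sftpc was at 2 and 3 UMIs and Chil3 at 2 and 0.

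The libraries also differed in the sex of their cells. A cell was male-called when it had a UMI of a Y-linked gene (Ddx3y, Eif2s3y, Kdm5d or Uty) and none of Xist, and female-called in the opposite case. Among endothelial cells 21 were male-called and 11 female-called in PBS, and 13 and 16 in DT. Male-called cells were thus 65.6% of called endothelial cells in PBS and 44.8% in DT, against 87.4% and 31.8% among other cells. The sexes stand here for different mice of the pools, so within-sex values are given for the gene lists the results turn on.

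Capillary identity was assigned to each cell by the vessel list with the most detected genes, if at least 2 were detected and no other list tied. General capillary cells were the majority, 64 of 91 (70.3%, 59.8 to 79.5%) in PBS and 52 of 77 (67.5%, 55.9 to 77.8%) in DT. Aerocytes were 8 (8.79%, 3.87 to 16.6%) and 10 (12.99%, 6.41 to 22.6%). The intervals of both shares overlap between the libraries. The aerocyte calls were not equally firm. More than 3 aerocyte genes were detected in 7 of the 8 PBS cells but only in 5 of the 10 DT cells. The 5 DT cells with 3 or fewer had a median of 390 UMIs. Among them, however, was the mixed DT cell of 11124 UMIs, with all 8 pan-leukocyte genes, 2 aerocyte genes and 0 general capillary genes. Aerocyte calls also went to mixed PBS cells of 15218 and 10163 UMIs and to a mixed DT cell of 6355 UMIs. The aerocyte shares above include these mixed cells. Larger vessels were rare, with 4 PBS and 0 DT cells called artery (0 of 77, exact interval up to 4.68%), 3 and 2 called vein, and 2 and 1 called lymphatic. Another 10 PBS and 12 DT cells had no call, with median depths of 1626 and 729 UMIs. Not all were shallow, since an uncalled PBS cell of 18133 UMIs tied at 11 aerocyte and 11 general capillary genes. Uncalled PBS cells held 29 Car4 and 16 Ednrb UMIs, and uncalled DT cells held 0 of either. When cells were thinned to 1000 UMIs, which dropped 28 cells in each library, aerocytes were 8 of 63 and 4 of 49 and general capillary cells 43 of 63 and 31 of 49.

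Genes of both capillary programmes were spread over the called cells as their names say, which the calls fix in part. Ednrb, an endothelin receptor, had 68 UMIs in the 8 PBS aerocytes and 13 in the 64 general capillary cells, and 33 and 1 in the 10 and 52 DT cells. Plvap, a protein of the diaphragms of capillary pores, had 10 UMIs in PBS aerocytes and 335 in general capillary cells, and 11 and 135 in DT. The types were not cleanly apart in every cell: of 13 PBS cells with an Ednrb UMI 11 also had Gpihbp1, a carrier of lipoprotein lipase on capillaries, and of 9 such DT cells 3 did. Ccl21a, a lymphatic chemokine, came from 2 PBS cells and 1 DT cell.

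**Figure D1:**
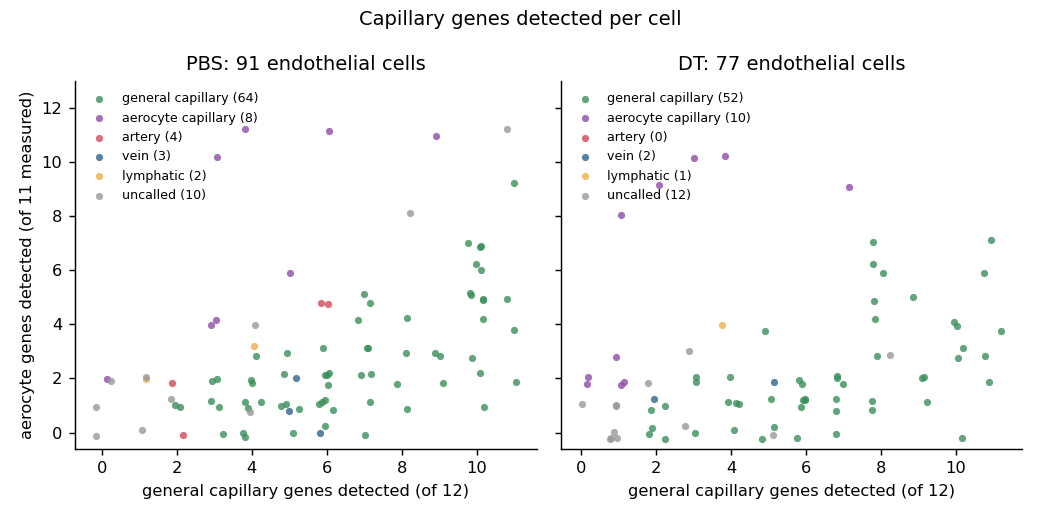
Number of general capillary genes (horizontal axis, of 12) and aerocyte genes (vertical axis, of 11 measured) detected in each endothelial cell of the PBS and DT libraries, with a small random offset. Colours give the vessel call, and most cells (64 and 52) carry more general capillary genes than genes of any other vessel list.

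Summed over a list, transcripts of p53 target genes were higher in endothelial cells than in leukocytes of the same irradiated lungs, narrowly so against Csf3r cells in DT. For this comparison, leukocytes were cells positive for 1 of Cd3e, Cd79a, Csf3r or C1qa alone and with fewer than 2 rule genes. Of 22 p53 targets with at least 10 endothelial UMIs in PBS, 16 were above all 4 leukocyte gates and 0 below all 4, and in DT 18 of 20 and 0. The minimum was set on endothelial UMIs, so targets low in endothelial cells were left out of these counts. Over all genes with as many endothelial UMIs, 54.1% of 5805 in PBS and 51.7% of 5028 in DT lay above all 4 gates, so this order is common among genes of endothelial cells. Only 8.65% and 5.15% of all these genes lay below all 4 gates. These counts describe 1 library each and carry no test. Summed over the list, p53 targets made up 6469 CPM of the PBS and 5789 CPM of the DT endothelial RNA. The gates ranged from 1155 (Cd79a) to 4290 CPM (Csf3r) in PBS and from 1230 to 5594 CPM in DT. Much of the Csf3r level was Btg2, an anti-proliferative gene, at 2418 and 2958 CPM there against 234 and 295 in endothelial cells. Since no lung was left unirradiated, a response to radiation and a standing level of these genes in endothelium cannot be told apart.

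Cdkn1a, the p21 cell cycle inhibitor, reached 2213 CPM in endothelial cells of PBS and 1657 CPM in those of DT. In the gates it lay between 29.9 and 678 CPM in PBS and between 26.2 and 702 CPM in DT. It was detected in 71 of 91 and 56 of 77 cells, with a median of 1763 CPM per cell (range 0 to 10707) in PBS and 1115 CPM (range 0 to 7962) in DT. The DT cells were lower by a ratio of 0.749 (0.663 to 0.844), and the per-cell ranges overlap over most of their length. Within male-called cells Cdkn1a was at 1724 and 1315 CPM and within female-called cells at 3336 and 1843 CPM, lower in DT in both. Phlda3, a p53-induced inhibitor of Akt, was at 581 and 474 CPM and was at most 56 CPM in any gate. Ephx1, an epoxide hydrolase, was at 471 and 409 CPM against at most 67 CPM. Gdf15, a secreted stress cytokine, was at 295 and 149 CPM against at most 31 CPM.

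The promoter window of Cdkn1a is shown because p53 is known to bind paired sites with a CATG core. RefSeq windows on GRCm38.p6, from 250 bases before to 50 bases after a gene's start, were searched for 2 copies of CATG with any 6 bases between them, which reads the same on both strands. It was present in 234 of 32851 windows (0.712%) and, among 38 windows of 25 p53 targets, in 1, at Cdkn1a. Of the 2 Cdkn1a windows it lies in that of the upstream start, chr17:29090729-29091028 on the plus strand, 48 to 35 bases before the start. The gene spans chr17:29090976-29100727. The match is in capitals, and no binding was measured here.

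Cdkn1a: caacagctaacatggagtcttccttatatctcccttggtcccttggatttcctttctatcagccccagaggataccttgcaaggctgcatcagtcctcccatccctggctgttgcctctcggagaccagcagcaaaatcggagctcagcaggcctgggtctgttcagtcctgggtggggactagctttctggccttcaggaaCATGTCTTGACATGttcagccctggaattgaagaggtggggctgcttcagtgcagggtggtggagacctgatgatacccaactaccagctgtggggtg

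**Figure D2:**
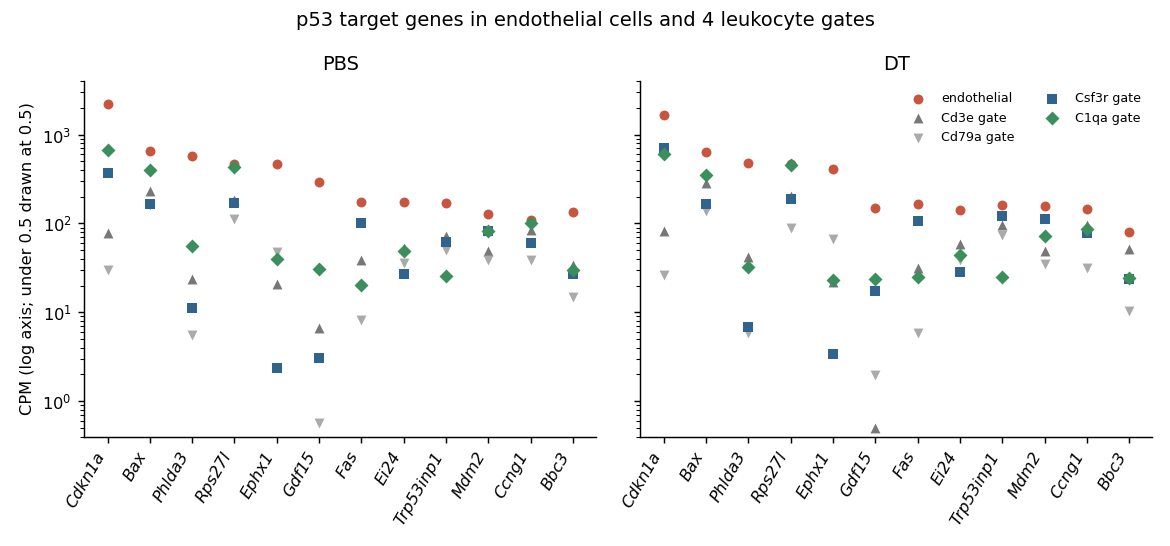
CPM of 12 p53 target genes (log axis) in endothelial cells and in 4 leukocyte gates of the PBS and DT libraries, 1 point per pool of cells. The genes plotted are drawn from those above all 4 gates in both libraries, so that endothelial cells are the highest point by choice, with Cdkn1a at 2213 and 1657 CPM.

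Between the libraries the p53 list was close to even. Ratios are DT over PBS on the log2 scale with 5 CPM added to both sides, and a gene is called past the fold when this ratio is at least 1.5 in either direction. Of 5342 genes with at least 20 endothelial UMIs, 10.4% were past the fold higher in DT and 12.9% lower, 23.3% in all, and the median over all of them was -0.02. Without mixed cells the shares were 11.8% and 13.4% of 4310 genes. Of 21 p53 targets that passed the same minimum, 8 were higher and 13 lower in DT with a median of -0.08, and 3 were past the fold. Plk2, a stress-induced kinase, was higher (54.7 and 145 CPM, log2 1.33). Gdf15 (log2 -0.96) and Bbc3 (134 and 80.4 CPM, log2 -0.70) were lower, but Gdf15 turned to 0.12 when cells were thinned to 1000 UMIs. Bax was at 648 and 643 CPM and Mdm2 at 128 and 157 CPM. Without mixed cells 10 were higher and 10 lower, and 3 past the fold. Summed p53 targets were at 5221 and 5122 CPM in male-called cells and at 9157 and 6108 CPM in female-called cells.

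Genes of capillary identity were lower in the DT library. Of 10 aerocyte genes with enough UMIs 9 were lower, 8 of them past the fold, and the median log2 ratio was -0.84. Igfbp7, a secreted vessel-matrix protein, was at 1265 and 589 CPM (ratio 0.466, 0.385 to 0.562). Car4, a carbonic anhydrase on the aerocyte surface, was at 514 and 275 CPM (0.536, 0.401 to 0.711), and Ednrb at 304 and 138 CPM (0.453, 0.301 to 0.669). Prx, a scaffold protein, was at 222 and 275 CPM. These sums rest on few cells, since Ednrb was detected in 13 and 9. With every cell given the same weight the list's median was -0.28, with Ednrb at -0.18 and Car4 at -0.08 on the log2 scale. Without mixed cells it was -0.69 over 9 genes. The summed list was at 3388 and 1476 CPM in male-called cells and at 7033 and 2232 CPM in female-called cells. In cells with no sex call, the largest group, it was at 5582 and 4692 CPM (ratio 0.840, 0.739 to 0.955), and without mixed cells the ratio was 0.937 (0.819 to 1.07).

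General capillary genes were lower by less. All 11 measured members were below 0, 3 past the fold, with a median of -0.44. Over all genes 12.9% were past the fold lower in DT and 23.3% in either direction. Without mixed cells 7 of 11 were lower and the median was -0.30. Hpgd, the enzyme that inactivates prostaglandins, was at 2219 and 1309 CPM (0.590, 0.517 to 0.671). Plvap was at 1265 and 681 CPM (0.539, 0.449 to 0.643), and Lpl, lipoprotein lipase, at 499 and 252 CPM. Gpihbp1 (1070 and 888 CPM) and Cd93, a capillary lectin-like receptor (1216 and 1136 CPM), were within the fold. Pan-endothelial genes were mostly lower too. Of 24 endothelial markers that the rule did not use, 21 were lower in DT, 2 past the fold, with a median of -0.30. Without mixed cells 20 were lower and the median was -0.25. The rule genes, which are only described, divided. Cdh5, the junction cadherin, was at 1569 and 1599 CPM and Calcrl at 1623 and 1710 CPM. Cldn5, a tight junction protein, was at 3952 and 2832 CPM. In male-called cells without mixed cells the summed general capillary list was higher in DT (9952 and 10814 CPM), and in female-called cells lower (11518 and 6856 CPM).

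Genes of BMP and TGF-beta signalling, which keeps lung endothelium quiescent, were lower as well. Of 15 measured members 14 were lower, 6 past the fold, with a median of -0.51. Over all genes 12.9% were past the fold lower in DT. Of the 24 endothelial markers that the rule did not use, 21 were lower and 2 past the fold. Without mixed cells 12 of 14 BMP and TGF-beta genes were lower, with a median of -0.39. Of these 14 genes, 5 were past the fold lower and 1 higher. The receptors Eng (1411 and 804 CPM, ratio 0.570, 0.482 to 0.672) and Acvrl1 (1541 and 907 CPM, 0.588, 0.502 to 0.688) were both past the fold, and Bmpr2 was at 1490 and 1106 CPM. The feedback inhibitors Smad6 (532 and 321 CPM) and Smad7 (538 and 318 CPM) were past it, and the BMP target genes Id1 (836 and 631 CPM) and Id3 (894 and 738 CPM) were not. The summed list was lower in DT in male-called cells (8004 and 6202 CPM) and in female-called cells (11549 and 6469 CPM). Without mixed cells the male-called ratio was 0.893, with an interval of 0.790 to 1.01.

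Single Notch and vessel-tone genes were lower in DT. Edn1, endothelin, the constrictor peptide, had 70 UMIs in 26 PBS cells and 29 UMIs in 6 DT cells, of which 1 mixed cell held 22. Without mixed cells it was at 260 and 38.7 CPM, a ratio of 0.149 (0.0576 to 0.323). Within female-called cells Edn1 was at 157 and 218 CPM, or at 157 and 15.1 CPM without mixed cells, and within male-called cells at 135 and 0 CPM. Hey1, a Notch target, was detected in 32 and 10 cells at 219 and 119 CPM, and the Notch ligand Dll4 in 26 and 12 cells at 131 and 76.5 CPM. Nostrin, which traffics nitric oxide synthase, was at 322 and 138 CPM, but its log2 ratio turned from -1.20 to 0.35 with thinning to 1000 UMIs. Npr3, the natriuretic peptide clearance receptor, was at 477 and 203 CPM. Ace, the angiotensin-converting enzyme, was at 964 and 1018 CPM. Of 9 Notch genes 7 were lower and 2 past the fold, a share near the 23.3% of all genes, so the list as a whole did not stand apart. Of 13 vessel-tone genes 9 were lower, 6 past the fold, with a median of -0.54 that became 0.11 with thinning. The summed vessel-tone list was at 7155 and 5643 CPM in male-called and at 10180 and 6783 CPM in female-called cells.

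Among genes at least 3 times as high in endothelial cells as in the others, the lowest in DT included Maff (64 UMIs in 32 PBS cells, 13 in 9 DT cells, log2 -1.87), a stress-induced bZIP factor, Fgfr3 (45 and 13 UMIs, log2 -1.37), a fibroblast growth factor receptor, Sec14l1 (log2 -1.38) and Cep85l (log2 -1.33). Fabp4, a fatty acid carrier of capillaries, had 105 UMIs in 3 PBS cells, 99 of them in 1, and 0 in DT, so its ratio describes 1 cell. Gm21541, a Ccl21 paralog that shares reads with its copies, came from the lymphatic-called cells.

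Several basement membrane genes were higher in DT. Of 9 measured members 6 were higher, 5 past the fold, with a median of 0.60. The collagen IV chains Col4a1 (471 and 880 CPM, ratio 1.87, 1.52 to 2.30) and Col4a2 (286 and 513 CPM, 1.79, 1.37 to 2.36) and the protease inhibitor Timp3 (140 and 264 CPM) led. With every cell given the same weight the list median was 0.20 on the log2 scale, with Col4a1 at 0.92 and Col4a2 at 0.20. The summed list was higher in DT in female-called cells (2187 and 4427 CPM) and not in male-called cells (2337 and 2084 CPM, ratio 0.891). Without mixed cells 6 of 7 basement membrane genes were higher, with a median of 0.70 and sums of 2597 and 3892 CPM. Of these 7 genes, 5 were past the fold higher and 1 lower. Over all cells, summed markers of matrix-making cells were also higher in DT. The pericyte and smooth muscle list was at 36.5 and 145 CPM, with 23 of 38 DT UMIs in 1 cell, and at 46.0 and 194 CPM without mixed cells. All 7 measured genes of that list had a UMI in DT and 4 had none in PBS, and 3 of the 7 are listed at 0 in a whole library. The summed fibroblast list was at 21.3 and 241 CPM, or at 26.8 and 16.6 CPM without mixed cells, with 3 of its 8 genes at 0 in each library. Their part in the result was not tested. Cd34, a surface sialomucin of capillaries, was at 365 and 708 CPM (1.94, 1.53 to 2.46). Tmem252 was at 195 and 520 CPM, and Scarb1, a receptor for high-density lipoprotein, at 119 and 226 CPM.

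**Figure D3:**
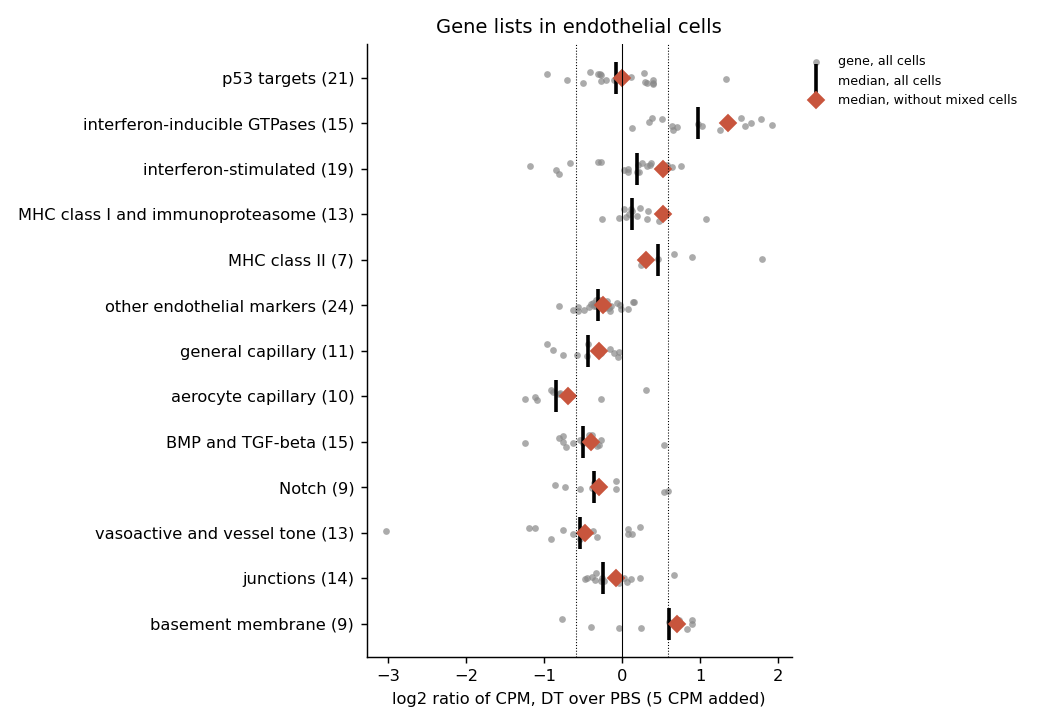
Log2 ratio of CPM, DT over PBS, for each gene with at least 20 UMIs (points) of 13 lists, with the number of genes in brackets; bars are medians over all endothelial cells, diamonds medians without mixed cells, dotted lines the fold of 1.5. The GTPase list is the farthest to the right (0.98 and 1.36) and the aerocyte list the farthest to the left (-0.84 and -0.69).

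The largest median among the lists plotted was that of interferon-inducible GTPases, a list chosen after its values were seen and therefore only described. All 15 of its members with at least 20 UMIs were higher in DT, 11 past the fold, with a median log2 ratio of 0.98. Without mixed cells 13 of 15 were past the fold and the median was 1.36, and 6 of the 10 highest genes by the fixed rule were then GTPases. Gbp2 was at 234 CPM in 26 PBS cells and at 681 CPM in 34 DT cells (ratio 2.91, 2.22 to 3.85), and without mixed cells at 157 and 940 CPM (5.98, 4.23 to 8.64). Gbp4 was at 143 and 436 CPM (3.05, 2.16 to 4.38), and Iigp1 at 179 and 574 CPM (3.20, 2.35 to 4.40). Gbp5 had 26 and 51 UMIs, Gbp3 26 and 42, and Gm12250 16 and 52. Several of these genes are near-identical copies whose reads the counting may have shared out between them.

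The promoter windows of 3 of these genes are shown for what their letters share. The core of the interferon-stimulated response element, GAAA and GAAA with any 2 bases between, was searched on both strands and is present in 1131 of 32851 windows (3.44%). The table of windows holds 13 of the 22 GTPase genes, and 12 of their 14 windows hold the motif. The copies share sequence and are not independent, and no binding was measured. The matches are in capitals. Gbp3 has 2 annotated windows, of which the upstream one is shown. The windows are chr3:142620413-142620712 for Gbp2, chr3:142496684-142496983 for Gbp5 and chr3:142559794-142560093 for Gbp3, all on the plus strand. The motif lies 59 to 50 bases before the start in Gbp2 and 165 to 156 bases before it in Gbp5, and in Gbp3 a pair of matches overlaps 45 to 30 bases before it.

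Gbp2: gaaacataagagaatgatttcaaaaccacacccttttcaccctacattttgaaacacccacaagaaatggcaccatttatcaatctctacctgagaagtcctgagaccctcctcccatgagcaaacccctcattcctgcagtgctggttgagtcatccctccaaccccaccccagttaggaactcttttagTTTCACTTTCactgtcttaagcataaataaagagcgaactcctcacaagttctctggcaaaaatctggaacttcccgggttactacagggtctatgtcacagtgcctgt
Gbp5: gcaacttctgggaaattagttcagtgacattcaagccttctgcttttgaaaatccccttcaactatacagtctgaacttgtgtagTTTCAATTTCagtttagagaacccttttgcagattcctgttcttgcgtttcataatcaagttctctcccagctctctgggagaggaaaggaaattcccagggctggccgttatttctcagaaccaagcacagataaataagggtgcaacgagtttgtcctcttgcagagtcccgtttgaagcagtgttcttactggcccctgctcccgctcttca
Gbp3: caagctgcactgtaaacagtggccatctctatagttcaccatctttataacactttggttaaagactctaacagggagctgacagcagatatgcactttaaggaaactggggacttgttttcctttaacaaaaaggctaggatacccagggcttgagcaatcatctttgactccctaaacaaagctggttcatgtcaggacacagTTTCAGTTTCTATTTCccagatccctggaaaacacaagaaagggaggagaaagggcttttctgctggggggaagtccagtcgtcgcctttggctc

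The GTPase difference was not shared by male-called and female-called cells. Summed over the 22 genes, the list came to 2110 CPM for PBS and 4507 CPM for DT endothelial cells (ratio 2.14, 1.94 to 2.35). In the 16 DT and 11 PBS female-called cells it was at 7058 and 1605 CPM (4.40, 3.57 to 5.46). In the 13 DT and 21 PBS male-called cells it was at 1650 and 2993 CPM (0.551, 0.448 to 0.674), and without mixed cells at 2119 and 2386 CPM (0.888, 0.681 to 1.15). Female-called cells held 63.1% of the list's UMIs in DT and 14.7% in PBS. A single female-called DT cell held 261 of the 1178 DT UMIs, and without it these cells were at 5128 CPM. Among male-called cells without mixed cells, 1 DT cell held 59 of 87 list UMIs and 1 PBS cell 78 of 187. Without these cells the levels were 773 CPM in DT and 1809 CPM in PBS. Per cell, the median was 4367 CPM (range 0 to 23153) in female-called and 582 CPM (0 to 12246) in male-called DT cells, and 1582 (0 to 2946) and 1394 (0 to 13333) in PBS. Cells with no sex call had medians of 812 CPM in PBS and 2132 CPM in DT. The difference between male-called and female-called cells was not tested, since each library holds 1 pool.

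**Figure D4:**
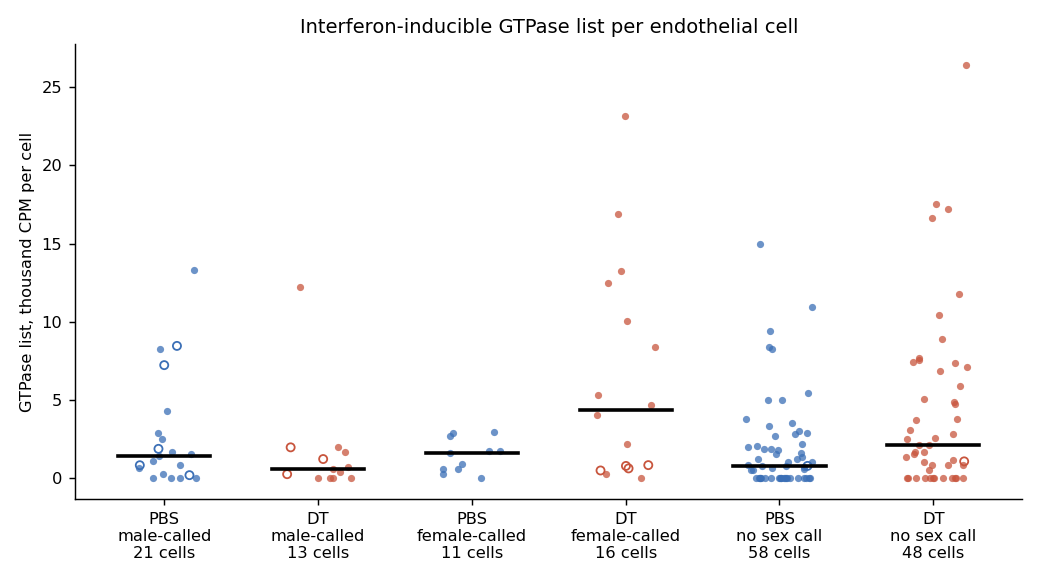
Summed CPM of the GTPase list in each endothelial cell (in units of 1000 CPM), by library and sex call; bars are medians and open circles mixed cells. Female-called DT cells have the highest median, 4367 CPM, and the groups overlap near 0.

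A like division was present in the Cd79a, Csf3r and C1qa leukocyte gates of the same pools, but not in the Cd3e gate. Over all cells of a gate the list's ratio was 1.09 (Cd3e), 0.894 (Cd79a), 1.34 (Csf3r) and 0.954 (C1qa), all below the 2.14 of endothelial cells. In female-called cells the ratio was 1.97 (1.71 to 2.27) in the Cd79a gate, 2.09 (1.78 to 2.45) in the Csf3r gate and 2.08 (1.75 to 2.50) in the C1qa gate, and 0.903 (0.827 to 0.988) in the Cd3e gate. In male-called cells it lay between 0.608 and 0.979 over the 4 gates. Toxin treatment and the mice that made up each pool cannot be told apart in these values.

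**Figure D5:**
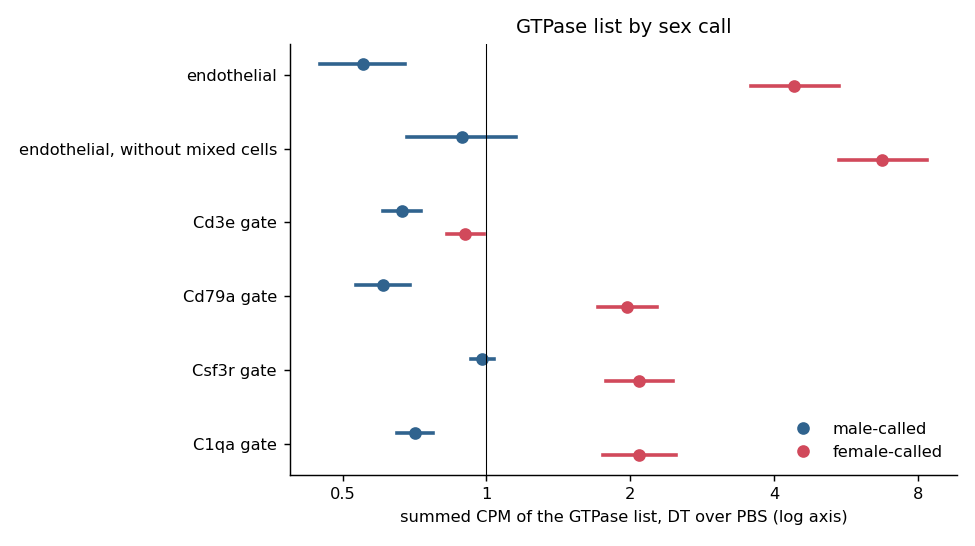
Ratio of the summed CPM of the GTPase list, DT over PBS (log axis), in male-called and female-called cells of the endothelial group, with and without mixed cells, and of 4 leukocyte gates, with 95% counting intervals. Female-called endothelial cells are highest at 4.40 and 6.73, and no male-called group is above 1.

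Other interferon-responsive genes were mixed. Wars, a tRNA synthetase induced by interferon gamma, was at 116 CPM in 23 PBS cells and at 482 CPM in 37 DT cells (ratio 4.17, 2.88 to 6.17). Irf1, a transcription factor of the interferon response, was at 192 and 298 CPM. Cxcl10, a T cell attractant, was at 818 and 616 CPM over all cells and at 142 and 890 CPM without mixed cells, and 1 DT cell held 128 of its 161 UMIs there. Of 13 genes of MHC class I and the immunoproteasome, which present peptides to CD8 T cells, 11 were higher with a median of 0.13. The peptide transporter Tap2 (155 and 333 CPM) was the 1 past the fold, and B2m was at 2253 and 2805 CPM. The list's sum was at 11942 and 18467 CPM in female-called and at 13679 and 9513 CPM in male-called cells. Of 19 interferon-stimulated genes 13 were higher with a median of 0.19, but 2 were past the fold higher and 4 past it lower. Without mixed cells these counts were 7 and 2 of 18. Isg15, a ubiquitin-like protein, was at 258 and 142 CPM, or at 111 and 166 CPM without mixed cells. Their sum was at 5428 and 10545 CPM in female-called and at 8340 and 4353 CPM in male-called cells. All 7 MHC class II genes were higher over all endothelial cells, 3 past the fold (without mixed cells all 6 with enough UMIs, 1 past it). Cd74, the invariant chain, was at 1477 and 2755 CPM. It was at 787 and 4588 CPM in female-called cells and at 1530 and 1588 CPM in male-called cells. In male-called cells without mixed cells Cd74 was at 1863 and 901 CPM. In cells called neither male nor female it was at 1734 and 1445 CPM. Cells outside the endothelial group carried Cd74 at 9992 and 8622 CPM, and free RNA from them was not measured.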

How the data were processed

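CD45+ lung cells of 1 PBS and 1 DT library were analysed, each a pool. The submitters' processing notes name STAR, Partek, Seurat and mm10, with versions and settings not given in the sources used here. Values as deposited by the authors are log2(CPM + 1) per cell, for 16184 genes. After undoing the log, dividing a cell's values by the smallest of them gave whole UMI numbers for 100% of values above 0 (within 1%). Median depth was 3719 and 2909 UMIs per cell, and 8 barcodes occurred in both libraries, none of them in an endothelial cell of either.

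UMIs were summed over cells and scaled to CPM. Intervals are exact at 95% (Clopper-Pearson for shares, conditional binomial for ratios) and cover counting error only. Genes listed at 0 in every cell of a whole library (601 in PBS, 430 in DT) were left out of gene ratios, list medians and counts past the fold. This choice was made after seeing the data, as were the mixed and sex-call subsets. Summed lists keep such genes, as with Apln in the aerocyte sum (35 UMIs in PBS, 0 in DT) and Eda2r in the p53 sum (0 and 17). Named genes were the 10 highest and 10 lowest ratios with at least 50 UMIs, a fold of at least 1.5 and an interval without 1, over all genes and over genes at least 3 times as high as in other cells, plus members of 45 lists. Of 531 list entries 30 are not analysed here, having no row. Cell membership, the rule and the lists were chosen with earlier results of these data known. Ratios and intervals were tested on simulated data in which every UMI was drawn independently. That simulation held no cells, so it cannot show how the intervals behave when UMIs cluster in a few cells. Gene positions are from GENCODE vM21 (GRCm38) and promoters from RefSeq. Python 3.11.15, numpy 2.4.6, scipy 1.17.1 and pandas 2.3.3 were used. Alternatives varied the marker number, cell filters, Ptprc, depth, weights, added CPM, UMI minimum and scaling. One interferon pathway gene is not reported here.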

Additional observations from a re-analysis of the deposited data

Results flagged for a closer look

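The ratio of DT over PBS lay on opposite sides of 1 in male-called and female-called endothelial cells for 3 lists, with both counting intervals without 1. The difference was not tested, since each library is 1 pool. The female-called ratio was 7.98 times the male-called one for the interferon-inducible GTPases, 3.72 times for the interferon-stimulated genes and 2.22 times for MHC class I and the immunoproteasome. The p53 targets, the aerocyte genes, the general capillary genes and the BMP and TGF-beta genes had summed ratios below 1 in both. In that order they were 0.981, 0.436, 0.884 and 0.775 in male-called cells and 0.667, 0.317, 0.478 and 0.560 in female-called cells. The male-called interval of the p53 targets, 0.864 to 1.11, holds 1. Without mixed cells the male-called GTPase ratio was 0.888 with an interval of 0.681 to 1.15, so the opposite sides are no longer clear of counting error for that list, while those of the interferon-stimulated and MHC class I lists were 0.840 (0.719 to 0.980) and 0.861 (0.773 to 0.959). Without mixed cells the male-called ratios of p53 targets and general capillary genes were 1.06 and 1.09, with intervals that hold 1. The male-called GTPase ratio without mixed cells rests in part on 1 DT cell, which held 59 of 87 list UMIs.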

How the results depend on the processing

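No paired analysis was possible because each group is 1 library. Male-called cells alone were to be used only with 20 or more cells per library and were not run on that condition, since DT has 13; the values below for sex-called cells were added after seeing the data. The endothelial ratio stayed between 0.72 and 0.87 and the capillary shares stayed within their intervals under every alternative run. Over 15 alternatives listed at the outset the median log2 ratio ranged from 0.60 to 1.10 for GTPases, from -1.07 to -0.28 for aerocyte genes, from -0.72 to -0.36 for BMP and TGF-beta genes and from -0.21 to 0.05 for p53 targets. The cause of the changes below was not tested, except that minimums and thinning change how many genes are counted.

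Against 554 genes past the fold higher and 690 lower in DT, thinning to 1000 UMIs gave 140 and 167, equal cell weight 1053 and 1172, a minimum of 1 UMI 2866 and 3058, and a minimum of 100 UMIs 52 and 85; equal weight without mixed cells gave 857 higher. The MHC class I median was 0.030 with at least 2 markers, -0.10 with thinning, -0.043 when mean log2 values per cell were subtracted, -0.074 in general capillary called cells and 0.52 without mixed cells. Without mixed cells the interferon-stimulated median was 0.53. With at least 2 markers the other endothelial markers were at -0.43. Thinning gave 0.97 for basement membrane and 0.11 for vessel-tone genes. Equal weight gave -0.78 for Notch genes, and -0.77 without mixed cells. The general capillary median was -1.12 when mean log2 values per cell were subtracted.

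In male-called cells the medians were -1.05 for GTPases (reversed), -0.98 for interferon-stimulated genes, -0.62 for MHC class I and -0.091 for other endothelial markers. In female-called cells they were 2.47, 1.11, 0.77 and -0.64 in the same order, with -1.68 for aerocyte, -0.998 for general capillary, -0.55 for p53, -0.99 for BMP and TGF-beta and 1.29 for basement membrane genes. Of 71 named genes with 1277 alternative values, 5 values reversed: Cd74 (-0.011), Ciita (-0.085) and Ccl3 (0.17) with at least 2 markers, and Gdf15 (0.12) and Nostrin (0.35) with thinning. Cells are few and shallow, so a gene under about 20 UMIs gives no usable ratio.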

Other observations

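Several endothelial genes were listed at 0 in every cell of 1 library, and for these no fold is given. Cyp1a1, an aryl hydrocarbon receptor target, had 138 UMIs in 22 PBS endothelial cells, and Sox7, an endothelial transcription factor, had 53 UMIs in 26 PBS cells. Apln, a peptide gene that marks aerocytes, had 35 UMIs in 11 PBS cells. All 3 are listed at 0 in the whole DT library. Eda2r, a p53-induced receptor, had 17 UMIs in 12 DT endothelial cells and is listed at 0 in the whole PBS library. Whether a filter per library removed these genes was not tested. In all, 601 genes are listed at 0 in PBS, while 70 have a UMI in 1 to 5 of its cells, and in DT the numbers are 430 and 104.

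Scgb1a1, the gene that drives Cre, was at 36.5 CPM (PBS) and 7.65 CPM (DT) in endothelial cells (12 and 2 UMIs), against 43.6 and 10.9 CPM in the other cells of these libraries. Vcam1, a leukocyte adhesion molecule, had 4 UMIs in 2 PBS cells and 20 UMIs in 7 DT cells. Lrg1, a secreted vessel-growth glycoprotein, had 40 and 172 UMIs, and 29 and 83 without mixed cells.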
